A study of Rattus norvegicus with 7 samples.

Results

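The genes that process, export, load and use small RNAs were measured in rat kidney cells that had each received a transfected RNA duplex. They are the 10 genes Drosha, Dgcr8, Xpo5, Dicer1, Tarbp2, Prkra, Ago1, Ago2, Ago3 and Tnrc6a, chosen by name as core components of RNA interference. Of 31099 probe sets on the array (a probe set is a group of short probes read as 1 signal for a transcript), 18 were annotated to 9 of these genes. No probe set annotated to a single gene symbol named Ago2, so its level is not analysed here. The series asks what silencing Adamts16, a secreted metalloprotease gene studied for inherited hypertension, does to NRK-52E, a rat renal epithelial line. Its 7 Affymetrix arrays hold 1 independent culture each, taken 48 h after lipofection with 100 pmol of duplex per ml of medium. The duplex was Adamts16-3488 on 2 arrays, Adamts16-2600 on 2 and a scrambled control on 3. The controls carry a duplex too, so each comparison is between different duplexes and not between a duplex and none.

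Animal cells make microRNAs in steps. The nuclease Drosha and its RNA-binding partner Dgcr8 cut a hairpin out of a long nuclear transcript, exportin 5 (Xpo5) carries it to the cytoplasm, and Dicer1, with the double-stranded RNA-binding proteins Tarbp2 and Prkra, trims it to a short duplex. A transfected siRNA enters after these steps: an Argonaute protein takes up the duplex, discards a strand, and uses the other as a guide to matching messages. Of the Argonautes, Ago2 is the one known for cutting a fully matched target, and Tnrc6a (GW182) links Argonautes to the enzymes that remove the poly(A) tail and cap of a message.

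The 6 strands of the transfected duplexes are shown as the labels give them. They are in DNA letters, 5′ to 3′, without the 2 added deoxythymidines. Capitals mark bases 2 to 8, the seed, which guides an Argonaute to a target.
Adamts16-3488 sense: aGAAGTACgtctccggaaa
Adamts16-3488 antisense: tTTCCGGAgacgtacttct
Adamts16-2600 sense: cCTATATTtctgtgcgcaa
Adamts16-2600 antisense: tTGCGCACagaaatatagg
Scrambled control sense: cCTCCAATgtgctcggtaat
Scrambled control antisense: aTTACCGAgcacattggagg
The paired stretch was 19 bases long in both Adamts16 duplexes and 20 in the scrambled one, and the strands of each duplex were fully complementary. Argonaute tends to keep the strand whose 5′ end is less firmly paired. Over the first 4 bases, A or T made up 3 in both strands of Adamts16-3488 and 2 in both strands of Adamts16-2600. The scrambled duplex was uneven in this count, with 4 in the antisense strand and 1 in the sense strand. The first base alone was C in the sense and T in the antisense strand of Adamts16-2600. In the same order it was C and A in the scrambled duplex, and A and T in Adamts16-3488. None of the 6 seeds was that of any of 692 distinct mature rat miRNA sequences in RefSeq (GRCr8). Which strand was loaded was not measured.

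The median signal per array was 126.1 to 139.6. Across the 18625 probe sets tested, log2 signals of any 2 arrays correlated at r = 0.966 to 0.990. Adamts16-2600 replicate 1 was as close to the control arrays (0.980 to 0.985) as to Adamts16-2600 replicate 2 (0.980), so results on this siRNA are also given without each of its arrays where that matters. Silencing could not be read: the single Adamts16 probe set gave 12.1 and 40.4 for siRNA 3488, 21.4 and 2.42 for siRNA 2600 and 7.18 to 18.9 for the control, below the level needed for testing (exact two-sided permutation p = 0.857 for all 4 siRNA arrays against the control, smallest possible 0.0571). Among epithelial markers Krt8 (control mean 5963) and Tjp1 (6382) were bright and Cdh1 (5.13), Krt18 (14.6) and Epcam (19.0) dim. The fibroblast collagen gene Col3a1 was at 19397. The summed signal of 9 fibroblast markers was 32443 and 36005 for siRNA 3488, 26667 and 28507 for siRNA 2600 and 26236 to 26876 for the control. Most of that sum was the signal of Col3a1. Among these 9, Lum, Pdgfra, Dcn and Thy1 were too dim to be tested. The beta-actin ratio of 3′ to 5′ signal, which is read as a sign of RNA quality, was 1.94 and 1.96, 1.81 and 1.83, and 1.74 to 1.79 in the same order of groups. The part of either in the results below was not tested.

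Of the 18 probe sets, 15 were bright enough to be tested (the upper 60% by mean log2 signal), and they represent 8 genes, Ago2 and Ago3 not among them. Signals of these 15 ranged from a low of 114 to a high of 2130 (arbitrary units). None was called in any of 4 comparisons with limma (adjusted p under 0.05 over all probe sets). With siRNA 3488 against the control, 0 of 15 were called where 15.6% of all tested probe sets were, and 1 had an unadjusted p under 0.05 (31.9% of all). With siRNA 2600 the call rate was 0 of 15 beside 1.03% of all, and 0 had an unadjusted p under 0.05 (15.2% of all). Between the siRNAs it was 0 of 15 beside 6.01% (unadjusted 1, beside 23.7%), and for both siRNAs against the control 0 of 15 beside 0.145% (unadjusted 0, beside 17.8%). The 0.145% depends on the fit, which joins both siRNAs as 1 group. With the mean of the siRNA effects in the fit of 3 groups, 1378 of 18625 were called, and 0 of the 15. With 15 probe sets, a count of 0 is not far from any of the shares of adjusted calls. The groups did not overlap for 4 of 15 with siRNA 3488 against the control, where they did not for 50.3% of all tested probe sets. These counts were 1 of 15 beside 34% with siRNA 2600, 4 of 15 beside 49.6% between the siRNAs, and 1 of 15 beside 17.7% for both siRNAs.

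**Figure D1:**
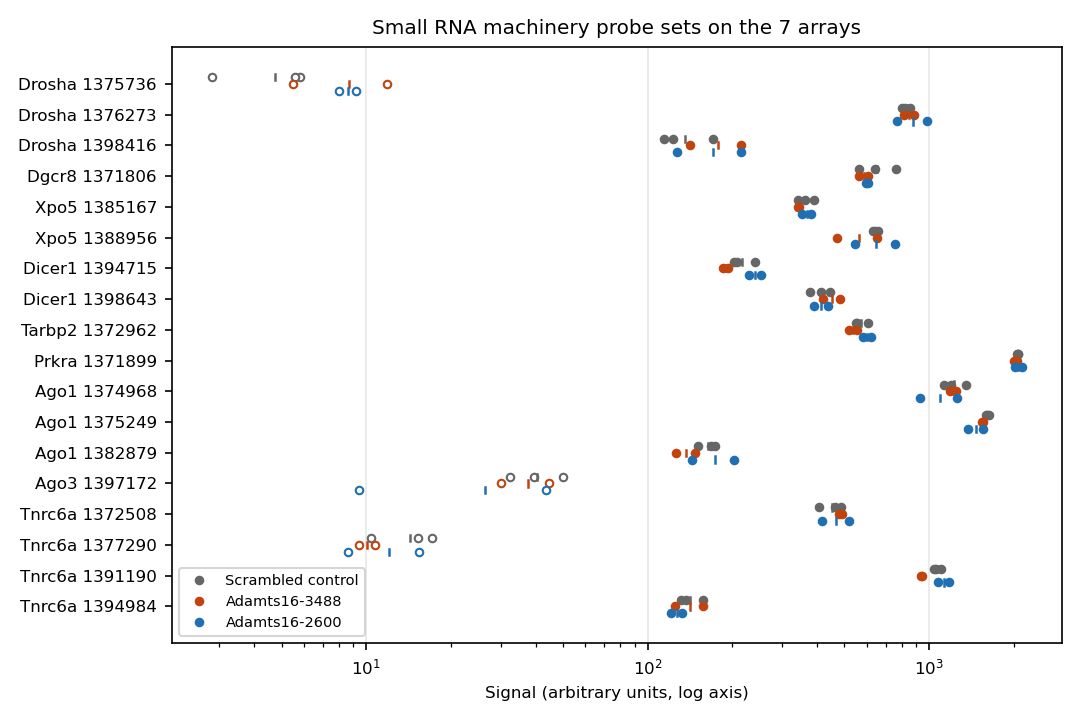
Signal of each probe set (rows, arbitrary units on a log axis) on the 7 arrays, coloured by siRNA, with a short vertical line at each group mean; open circles are the 3 probe sets too dim to be tested. Prkra on 1371899_at lies within 2010 to 2130 on all arrays, and most groups overlap.

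Drosha, the nuclease of the first cut, was measured by 3 probe sets. The brightest, 1376273_at, read 885 and 812 for siRNA 3488, 984 and 769 for siRNA 2600 and 856, 798 and 822 for the control. The siRNA 2600 arrays were the highest and the lowest of all 7, and all groups overlapped. Its log2 change was 0.04 (95% interval -0.20 to 0.28) with siRNA 3488 and 0.08 (-0.16 to 0.32) with siRNA 2600. The dimmer probe set 1398416_at read 142 and 215, 127 and 214, and 123, 171 and 114 in the same order. It was the most variable of the 15, with a coefficient of variation of 27% over the arrays. In each siRNA group replicate 2 was above every control array, while replicate 1 was among them. Replicate 2 was also the highest of the control arrays, so it read highest in every group. Its log2 changes of 0.38 (95% interval -0.25 to 1.02) and 0.30 (-0.34 to 0.93) did not pass (limma adjusted p = 0.388 and 0.680). The third, 1375736_at, stayed between 2.83 and 11.8, too dim for a level.

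Dgcr8, which recognises the hairpin for Drosha, read 605 and 564 for siRNA 3488, 608 and 595 for siRNA 2600 and 640, 562 and 764 for the control. The control group was the widest, with 655 ± 102 (SD, n = 3), and enclosed every siRNA array. Log2 changes were -0.15 (95% interval -0.43 to 0.12) and -0.11 (-0.39 to 0.16). Dgcr8 is itself known as a Microprocessor target, because its transcript holds hairpins. Of all members, it was the only one whose gene span holds a hairpin of the RefSeq miRNA table. This is Mir1306, on the same strand as Dgcr8 at chr11:96213960-96214032 (GRCr8, plus strand). Its 73 bases are shown with both mature arms in capitals.
Mir1306 hairpin: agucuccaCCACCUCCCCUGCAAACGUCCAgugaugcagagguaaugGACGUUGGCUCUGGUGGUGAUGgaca
The array signal is that of the messenger RNA and does not tell how much of it was cut.

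Exportin 5, the nuclear export receptor for the hairpin, had a steady and a variable probe set. On 1385167_at it read 346 and 341 for siRNA 3488, 353 and 382 for siRNA 2600 and 363, 389 and 343 for the control. The siRNA 3488 arrays lay under both siRNA 2600 arrays, and they overlapped the control. On 1388956_at the signals were 472 and 656, 754 and 544, and 643, 633 and 657. Here the control arrays agreed within 12 (SD) while both siRNA groups spread over them (SD 129 and 148, n = 2 each). Log2 changes with siRNA 3488 were -0.09 (95% interval -0.34 to 0.17) and -0.21 (-0.56 to 0.14), and with siRNA 2600 0.01 (-0.24 to 0.26) and -0.01 (-0.36 to 0.34).

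Dicer1, the enzyme that cuts hairpins and long double strands to size, gave opposite small differences on its 2 probe sets with siRNA 3488. On 1394715_at it read 193 and 185 for siRNA 3488, 230 and 252 for siRNA 2600 and 208, 202 and 240 for the control. The siRNA 3488 arrays were the lowest of the 7, below every control array. The log2 change was -0.20 (95% interval -0.53 to 0.14) with siRNA 3488 and 0.15 (-0.18 to 0.49) with siRNA 2600 (limma adjusted p = 0.403 and 0.690). Between the siRNAs the difference was -0.35 (-0.72 to 0.02, limma adjusted p = 0.233). The brighter 1398643_at read 484 and 421, 437 and 390, and 376, 412 and 443, with overlapping groups. Its changes were 0.14 (-0.13 to 0.41) and 0.01 (-0.25 to 0.28). By the Pearson correlation of log2 signal over the 7 arrays, the genes most like this brighter probe set among all those tested were Ttbk2 (0.986), Tctn3 (0.948) and Hacd3 (0.946). Each read lowest on the same arrays as Dicer1, Adamts16-2600 replicate 2 and control replicate 1. These correlations are the highest among tested probe sets with 1 gene symbol, Dicer1 left out, a choice that by itself picks high ones. The median over all 18625 was -0.078.

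Tarbp2 and Prkra, the double-stranded RNA-binding partners of Dicer1, also act on the kinase Eif2ak2 (PKR), which Tarbp2 is known to restrain and Prkra to activate. Tarbp2 read 520 and 555 for siRNA 3488, 622 and 584 for siRNA 2600 and 608, 553 and 552 for the control. The groups of the siRNAs did not overlap each other (-0.17, 95% interval -0.40 to 0.06, limma adjusted p = 0.359), and each overlapped the control. Prkra read 2010 and 2060, 2130 and 2015, and 2047, 2069 and 2066. It was the steadiest member, with a coefficient of variation of 1.95% over all 7 arrays. Only 7 of 18625 tested probe sets varied less. Its log2 changes of -0.02 (-0.16 to 0.12) with siRNA 3488 and 0.01 (-0.13 to 0.14) with siRNA 2600 have the narrowest intervals of the members.

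Of the Argonautes, the proteins that hold the guide strand, Ago1 could be tested and Ago3 could not. The brightest Ago1 probe set, 1375249_at, read 1554 and 1536 for siRNA 3488, 1560 and 1377 for siRNA 2600 and 1635, 1592 and 1601 for the control. All 4 siRNA arrays were under the 3 control arrays, the only one of the 15 for which this was so in either direction. The same held for 17.7% of all tested probe sets. Taking both siRNAs together it stood at -0.10 from the control (95% interval -0.25 to 0.06, limma adjusted p = 0.478). The change was -0.06 (-0.22 to 0.10) with siRNA 3488 and -0.13 (-0.30 to 0.03) with siRNA 2600. Adamts16-2600 replicate 2 was the lowest array, and the other 3 siRNA arrays lay close together.

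The other Ago1 probe sets ordered the arrays differently. On 1374968_at the signals were 1186 and 1247, 925 and 1256, and 1125, 1195 and 1354, where Adamts16-2600 replicate 1 was the lowest. Changes were -0.01 (95% interval -0.28 to 0.27) and -0.18 (-0.46 to 0.10). On 1382879_at they were 147 and 126, 144 and 202, and 173, 151 and 169, with both siRNA 3488 arrays under the control. Changes were -0.27 (-0.72 to 0.18) and 0.05 (-0.39 to 0.50). Ago3 stayed between 9.44 and 49.9 on its only probe set, 1397172_at, below the level for testing. In the fit over all probe sets its change was -0.12 (-1.66 to 1.42) with siRNA 3488 and -0.98 (-2.52 to 0.56) with siRNA 2600, so that a change in either direction could not be told from none.

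Tnrc6a, the effector that joins Argonautes to deadenylation, came closest to a call. Its brightest probe set, 1391190_at, read 936 and 946 for siRNA 3488, 1078 and 1177 for siRNA 2600 and 1057, 1045 and 1104 for the control. The siRNA 3488 arrays were the lowest of the 7 and close to each other. The log2 change was -0.18 (95% interval -0.35 to -0.02, unadjusted p = 0.0347, limma adjusted p = 0.125) against the control. Against siRNA 2600 it was -0.26 (-0.44 to -0.08, limma adjusted p = 0.0920), and siRNA 2600 stood at 0.08 (-0.09 to 0.24) from the control. None of these passed. On 1372508_at the signals were 491 and 478, 518 and 416, and 408, 463 and 485, with changes of 0.10 (-0.17 to 0.38) and 0.04 (-0.24 to 0.32). On 1394984_at they were 125 and 157, 121 and 133, and 157, 137 and 131, with changes of -0.01 (-0.46 to 0.43) and -0.16 (-0.60 to 0.29). The remaining probe set, 1377290_at, stayed under 17.2. The paralogs Tnrc6b and Tnrc6c, picked out here after their values were seen, gave -0.29 (limma adjusted p = 0.0619) and -0.21 (0.152) with siRNA 3488 and 0.04 (0.895) and -0.22 (0.309) with siRNA 2600 on their brightest probe sets.

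**Figure D2:**
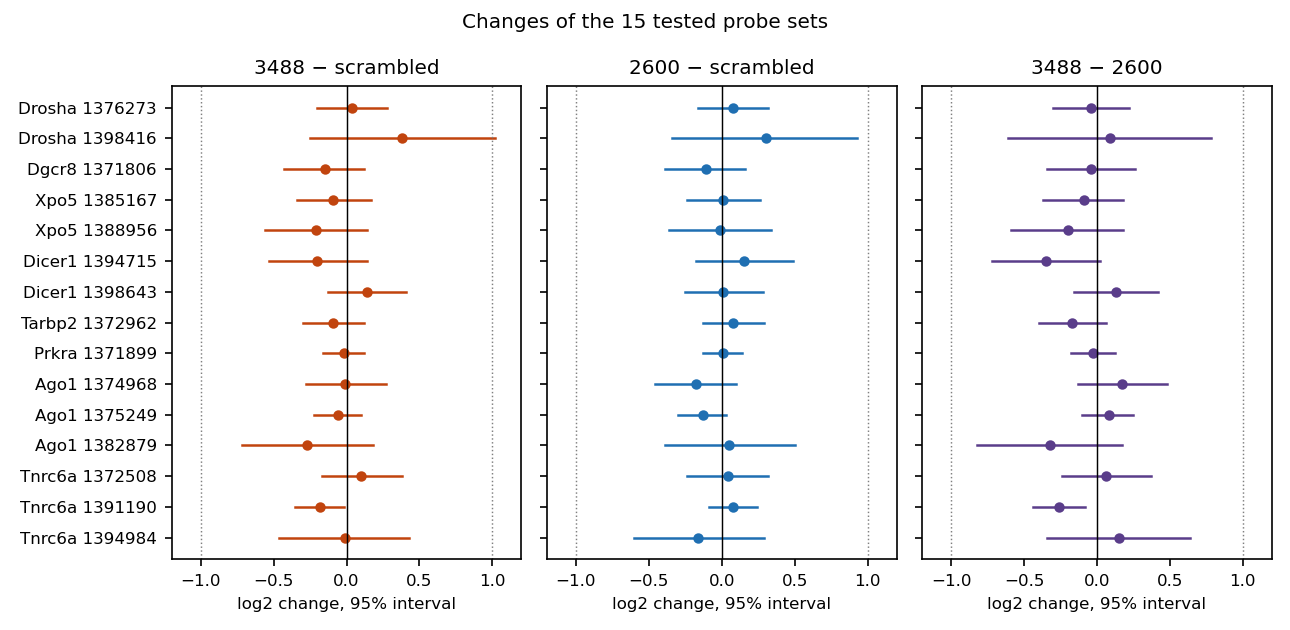
Log2 change (points) with its 95% interval (lines) for the 15 tested probe sets in 3 comparisons; dotted lines mark 2-fold. The intervals include 0 except for Tnrc6a on 1391190_at in the siRNA 3488 comparisons (-0.18 and -0.26), and Drosha on 1398416_at has the widest.

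The intervals also give limits to what a change in the signal of a probe set could have been. They are not limits for a gene, because tested probe sets of the same gene tracked each other poorly. Over the 7 arrays, Pearson r of their log2 signals ran from -0.61 (Drosha) to 0.26 (a pair of Ago1). With siRNA 3488, the 95% interval lay within 2-fold either way for 14 of 15 probe sets, Drosha 1398416_at being the exception, and within 1.5-fold for 13. With siRNA 2600 it lay within 2-fold for 15 of 15 and within 1.5-fold for 13. Between the siRNAs it lay within 2-fold for 15 of 15 and within 1.5-fold for only 10. For both siRNAs against the control these counts were 15 and 14. The median log2 change of the 15 was -0.06 with siRNA 3488, equal to the -0.06 of all tested probe sets, and 0.01 with siRNA 2600 beside -0.02 for all. The median coefficient of variation was 8.69% for the members and 12.8% for all. In simulated data of this design, 78% of 2-fold and 36% of 1.5-fold changes were recovered for siRNA 3488, and 64% and 24% for siRNA 2600. Changes of 1.5-fold were thus missed more often than recovered for either siRNA alone in these simulated data. For both siRNAs against the control, 56% of them were recovered. There, 50 of 18625 probe sets were changed at each fold size, whereas 2911 were called with siRNA 3488 in the measured data. Adjusted p depends on how many probe sets change, so the simulated shares for siRNA 3488 give no recovery rate for the members. Both single-siRNA comparisons use the same control arrays.

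Partner genes that work around these members were taken from a list of 103, each measured by its brightest probe set, and 86 of 89 on the array could be tested. The lists were chosen with earlier results of these data known, so their shares of calls are no test of the lists. Shares over all genes were not matched for signal either. In the upper 40% of probe sets by signal, 2904 of 12417 were called with siRNA 3488. With siRNA 3488, 10 of the 86 rose and 11 fell (24.4%), beside 16.9% of all 10019 genes tested (9.31% higher and 7.6% lower). With siRNA 2600 only Lsm2 was called on these brightest probe sets, and it rose (1.16%, beside 1.1% of all genes, 0.729% higher). Between the siRNAs 5 were higher and 4 lower with siRNA 3488 (10.5%, beside 6.96% of all, 3.53% higher and 3.42% lower). For both siRNAs against the control Lsm2 was again the only call, beside 0.2% of all genes (0.18% higher). The siRNA 3488 count of 21 fell to 4 without Adamts16-3488 replicate 2 (Ran, Lsm2, Edc4 and Zswim8), and to 8, 10 and 12 without control replicates 1, 2 and 3. After median centring of the arrays the calls with siRNA 3488 were 16 higher and 3 lower. The same genes had 60 further, dimmer probe sets that were tested. With siRNA 3488, 1 of them rose and 9 fell (10 of 60, beside 15.6% of all tested probe sets). These are given with their lists, named after their values were seen. With siRNA 2600, 1 of the 60 was called, beside 1.03% of all tested probe sets. It was that of Fkbp5, a chaperone-binding isomerase, which rose (0.76, limma adjusted p = 0.0313). The brightest Fkbp5 probe set stood at 0.19 (0.447).

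**Figure D3:**
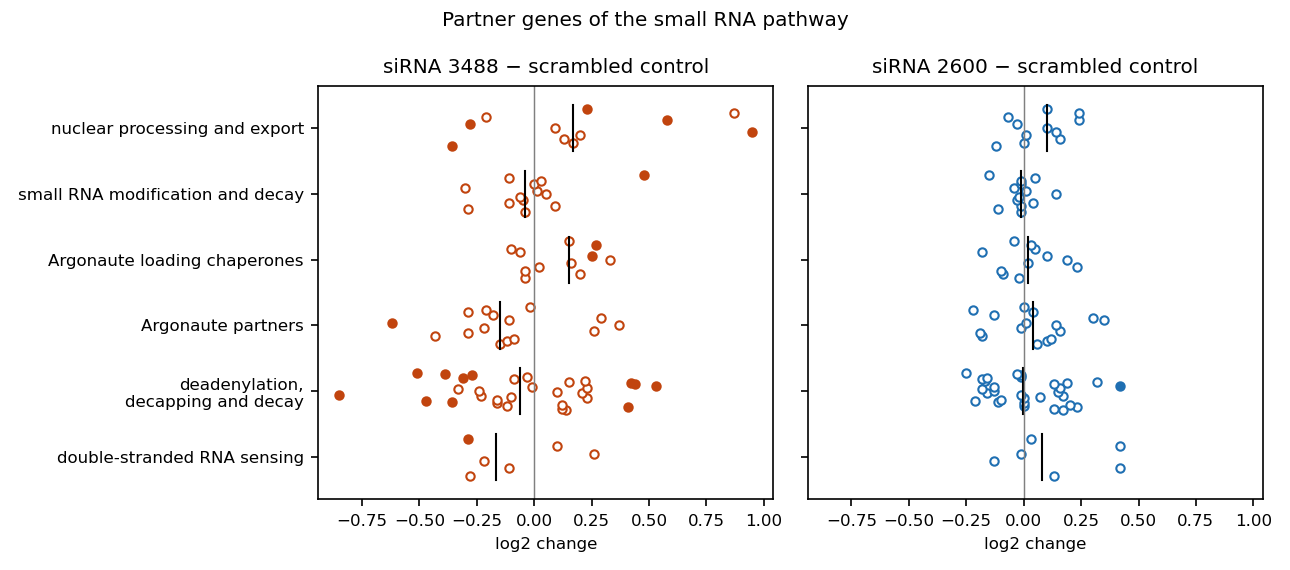
Log2 change of the 86 tested partner genes against the control, by list, for each siRNA (1 point a gene, filled where called, black line at the list median). With siRNA 3488 both directions hold called genes, from Edc4 at -0.85 to Khsrp at 0.95, and with siRNA 2600 only Lsm2 is filled.

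Messages silenced through Tnrc6a are deadenylated by the Pan2-Pan3 and Ccr4-Not complexes, decapped with help of the Lsm1-7 ring and Edc proteins, and degraded by Xrn1. In this list of 30 tested genes, 4 rose and 7 fell with siRNA 3488 (36.7%, beside 16.9% of all genes). The list median was -0.06, beside -0.02 for all genes. The list was chosen with earlier results of these data known, so its share of calls is no test of it. Edc4, the scaffold of the decapping complex, read 441 and 412 for siRNA 3488, 906 and 647 for siRNA 2600 and 761, 780 and 771 for the control. Both siRNA 3488 arrays were far under all others. The log2 change was -0.85 ± 0.13 (SE, limma adjusted p = 0.00440) against the control and -0.84 against siRNA 2600 (0.0143), the latter not passing without Adamts16-3488 replicate 2 or Adamts16-2600 replicate 1 (highest 0.0873). Lsm2, a subunit of the ring that binds deadenylated tails and of the related nuclear ring, read 1131 and 1106, 1049 and 1029, and 776, 738 and 810. All 4 siRNA arrays were above the control. It rose by 0.53 ± 0.08 with siRNA 3488 (limma adjusted p = 0.00376) and by 0.42 ± 0.08 with siRNA 2600 (0.0334). For both siRNAs together the change was 0.48 (0.0472). The siRNA 2600 call was lost without either siRNA 2600 array or any control array. That for both siRNAs was lost without Adamts16-3488 replicate 1 or 2, Adamts16-2600 replicate 2 or any control array (highest limma adjusted p 0.150 and 0.363 over all alternatives).

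Other genes of this list were called with siRNA 3488 alone. Lsm3 of the same rings rose by 0.44 ± 0.07 (limma adjusted p = 0.00685), from 1600 ± 66.4 (SD, n = 3) to 2166 ± 191 (n = 2). Cnot7, a deadenylase subunit of Ccr4-Not, fell from 1505 ± 78.7 to 1089 ± 144, a change of -0.47 ± 0.09 (0.00984). Both lost their call without Adamts16-3488 replicate 2 (highest adjusted p over all alternatives 0.0639 and 0.0850). The rest were Lsm4 and Cnot11, which rose, and Tob1, Tob2, Pan3, Cnot6l and Xrn1, which fell, by 0.27 to 0.51 in size. These 7 calls were lost without Adamts16-3488 replicate 2 or control replicate 1, and some without other arrays (adjusted p up to 0.211). Further probe sets did not pass and in part went the other way, with 0.34 for Cnot6l, -0.33 and 0.21 for Xrn1, and -1.02 for Pan3. Other genes of the list were called with siRNA 3488 on a dimmer probe set alone. They were Cnot9 of Ccr4-Not (0.68, limma adjusted p = 0.00892), the repressor gene Gigyf2 (-0.82, 0.0364) and Eif4a2 (-0.40, 0.0111). Between the siRNAs, Tob2, an adaptor of the deadenylase, was lower with siRNA 3488 (-0.36, limma adjusted p = 0.0485) and the RNA helicase gene Eif4a2 higher (0.36, 0.0326). The dimmer Eif4a2 probe set stood at -0.33 (0.0531). The Tob2 call was lost without any 1 of the 7 arrays, and that of Eif4a2 without Adamts16-3488 replicate 2, Adamts16-2600 replicate 1 or any control array (highest adjusted p 0.211 and 0.175).

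In the nuclear processing and export list, 3 of 11 genes rose and 2 fell with siRNA 3488 (45.5%, beside 16.9% of all genes). The list median was 0.17, beside -0.02 for all genes. This list too was chosen with earlier results known and was not matched for signal, so its share of calls is no test of it. Ran, the small GTPase that drives Xpo5-dependent export, read 11161 and 12247 for siRNA 3488, 8957 and 9510 for siRNA 2600 and 7550, 7901 and 8048 for the control. The 3 groups did not overlap. Ran rose by 0.58 ± 0.07 (limma adjusted p = 0.00184) against the control and stood 0.34 above siRNA 2600 (0.0283). After quantile normalization these became 0.25, still passing, and 0.08. The second was also lost without Adamts16-3488 replicate 2, Adamts16-2600 replicate 1 or any control array (adjusted p up to 0.147). Khsrp, a protein that binds terminal loops of some precursors, read 4530 and 5228, 2158 and 3591, and 2375, 2241 and 3016. It rose by 0.95 ± 0.19 (0.0107) with siRNA 3488, lost without Adamts16-3488 replicate 2 (highest adjusted p 0.0977). The siRNA 2600 arrays were far apart, and the Khsrp difference from siRNA 2600 (0.81, 0.0474) was lost without either siRNA 3488 array, Adamts16-2600 replicate 1 or any control array (highest adjusted p 0.224). The helicase gene Ddx17 fell by 0.36 ± 0.07 (0.0106). Tardbp, which binds Drosha and some precursors, rose by 0.23 ± 0.06 (0.0229). Ddx17 lost its call without Adamts16-3488 replicate 2 (0.0872) and after median centring. Tardbp lost it without either siRNA 3488 array or any control array (up to 0.0885), and its change became 0.02 after quantile normalization and 0.06 after cyclic loess. For Ddx17 a further probe set gave -0.19 and for Tardbp 0.04 and 0.03, none passing. Ncbp2, a cap-binding subunit, was the other gene that fell (-0.28, 0.0473), a call lost without Adamts16-3488 replicate 2 or any control array (up to 0.316). Its further probe sets gave -0.54 (0.00610) and -0.09 (0.556).

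**Figure D4:**
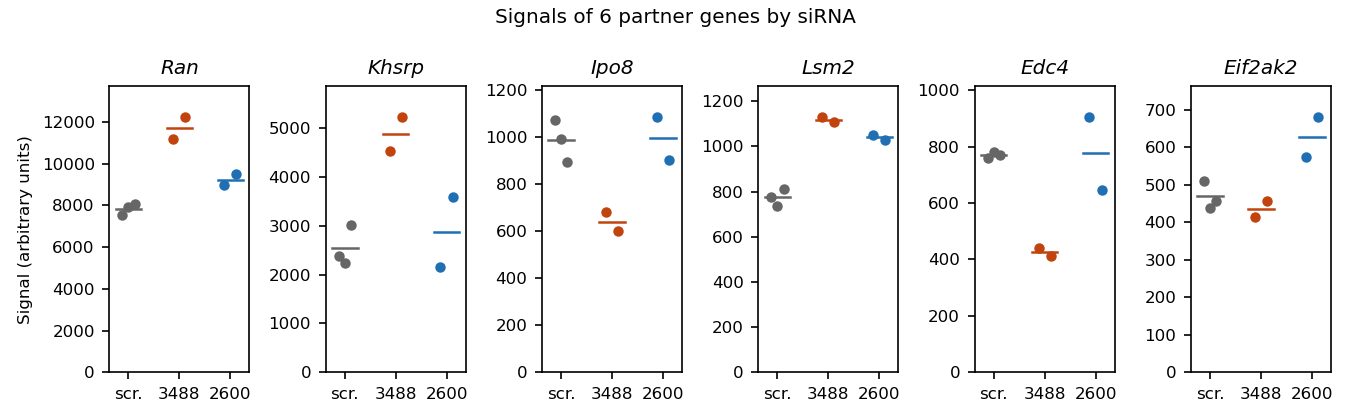
Signals (arbitrary units, axes from 0) of 6 partner genes on each array, with a line at the group mean, for scrambled control (scr., 3 arrays), siRNA 3488 (2) and siRNA 2600 (2). Every siRNA array of Ran and Lsm2 lies above the control arrays, Edc4 and Ipo8 are lowest on the siRNA 3488 arrays (Edc4 441 and 412), and Eif2ak2 is highest on the siRNA 2600 arrays.

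Among Argonaute partners 0 of 15 rose and 1 fell with siRNA 3488 (6.67%, beside 16.9% of all genes). The list median was -0.15, beside -0.02 for all genes. Ipo8, an importin known to bind Argonautes, read 681 and 601 for siRNA 3488, 1086 and 901 for siRNA 2600 and 1072, 991 and 892 for the control. Both siRNA 3488 arrays were under all others. It fell by 0.62 ± 0.11 on the log2 scale (limma adjusted p = 0.00768) and stood at -0.63 from siRNA 2600 (0.0211). A second Ipo8 probe set gave -0.58 (0.00690) and -0.52 (0.0280). Without Adamts16-3488 replicate 2 the first probe set no longer passed in either comparison, and without Adamts16-2600 replicate 1 not in the second (highest adjusted p over all alternatives 0.0760 and 0.127). Dimmer probe sets of other genes of this list were called too. The helicase gene Ddx6 gave -0.77 (limma adjusted p = 0.0166) and -0.35 (0.0405) with siRNA 3488, and -0.91 (0.0270) against siRNA 2600 on the first of these, beside -0.09 (0.763) on its brightest. Ajuba gave -0.33 (0.0240) beside -0.15 (0.160). The RNA-binding protein gene Fxr1 gave -0.44 (0.0418) and -0.15 (0.372) beside -0.29 (0.0606), and the second of these stood at -0.51 (0.0342) from siRNA 2600.

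Of 11 chaperone genes that help load Argonautes, 2 rose with siRNA 3488 (18.2%, beside 16.9% of all genes). They were the co-chaperone gene Ptges3 (p23, 0.27 ± 0.06, limma adjusted p = 0.0166) and Hsp90ab1 (0.25 ± 0.07, 0.0306), whose directions turned after quantile normalization (-0.01 and -0.05). Both calls were also lost without Adamts16-3488 replicate 2 or control replicate 1 or 2, and that of Hsp90ab1 without control replicate 3 (adjusted p up to 0.104 and 0.176). Cdc37, a kinase co-chaperone of Hsp90, was higher with siRNA 3488 than with siRNA 2600 (0.29, 0.0382), a call lost without any 1 array other than Adamts16-3488 replicate 1 (up to 0.166). Of 13 genes that modify or degrade small RNAs, 1 was called on its brightest probe set (7.69%, beside 16.9% of all genes with siRNA 3488). Zswim8, a ubiquitin ligase subunit known from target-directed microRNA decay, rose by 0.48 ± 0.10 (0.0122) with siRNA 3488 and stood 0.63 above siRNA 2600 (0.0148). The first call was lost without Adamts16-3488 replicate 1 or control replicate 1, and the second without Adamts16-3488 replicate 2 or Adamts16-2600 replicate 1 (adjusted p up to 0.0675 and 0.0702). Its other probe sets gave 0.02 and 0.27 against the control, neither passing. Tent2, a nucleotidyltransferase gene, fell on a dimmer probe set (-0.49, 0.0145) and stood at -0.06 (0.658) on its brightest.

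Double-stranded RNA is also sensed by Eif2ak2, the kinase on which Tarbp2 and Prkra act, and by Rig1 (RIG-I). Eif2ak2 read 413 and 457 for siRNA 3488, 574 and 681 for siRNA 2600 and 509, 439 and 457 for the control, so the siRNA 2600 arrays were the highest. It differed between the siRNAs (-0.53 ± 0.13, limma adjusted p = 0.0412) and not detectably from the control with either (-0.11 and 0.42, adjusted p = 0.565 and 0.125). Rig1 fell by 0.29 ± 0.09 (0.0473) with siRNA 3488, 1 of 6 tested sensing genes (16.7%, beside 16.9% of all genes). The Eif2ak2 call was lost without any 1 of the 7 arrays, and that of Rig1 without Adamts16-3488 replicate 2 or any control array (adjusted p up to 0.123 and 0.290). Eif2ak2 also did not pass after quantile normalization or cyclic loess. Rig1 did not after quantile normalization, median centring or cyclic loess or with the replicate block. The sensor gene Dhx58 was lower with siRNA 3488 than with siRNA 2600 on a dimmer probe set (-1.06, 0.0421), beside -0.41 (0.22) on its brightest.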

How the data were processed

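Biotin-labelled cRNA of 7 cultures was hybridised to Affymetrix arrays. The intensity that the authors deposited is 1 linear value for each probe set on each array, computed in GCOS 1.4 according to the notes on processing that the submitters gave. The sources used here do not give its background, summary and scaling settings. With 2% left out at each end, array means were all 500, so the values were already scaled. Probe sets were named from a table of platform annotation: 20826 had 1 symbol, 436 several and 9780 none. Entrez identifiers of 20758 were found in RefSeq (GRCr8), and 0 symbols changed. No gene was named from a probe set with several symbols.

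Signals under 1 were set to 1, log2 was taken, 57 controls were dropped, and the upper 60% by mean log2 signal (at least 6.09) were tested with limma 3.58.1 in R 4.3.3 (lmFit, eBayes with an intensity trend, Benjamini-Hochberg over 18625). All 7 arrays in 3 groups gave the single-siRNA comparisons, and in 2 groups that of both siRNAs with the control. Fold changes are log2. Intervals are 95%, unadjusted. The number of arrays limits the precision.

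The members and lists were chosen with earlier results of these data known. Every member probe set is reported. Of the partner lists, called genes are named, up to the 4 with the lowest p per list and comparison in full. A rule to name the genes most like Ago2 could not be applied. Simulated data were used to test the fits, with 200 of 18625 probe sets changed. Alternatives were quantile normalization, median centring, cyclic loess, no filter, the upper 40%, an offset of 32, signals raised to the filter level, no intensity trend, a block for the replicate number, only the arrays compared, the mean of the siRNA effects, and leaving out each array.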

Additional observations from a re-analysis of the deposited data

Results flagged for a closer look

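Over the 4 siRNA arrays, 1 of 15 tested member probe sets had an array far from the others. For Ago1 on 1375249_at, Adamts16-2600 replicate 2 (1377) lay apart from the other 3 (1536 to 1560), with a gap of 0.873 of the range on the log2 scale, above the critical 0.829. Chance flags about 1 in 20 such groups.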

How the results depend on the processing

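Member probe sets called stayed at 0 in all 4 comparisons under every alternative run, leaving out any array included; the lowest adjusted p of the 586 member values recomputed was 0.0714 (Tnrc6a 1391190_at between the siRNAs, upper 40% of probe sets), and counts at an unadjusted p under 0.05 were 0 to 2. Uncalled values near 0 changed sign. With siRNA 3488 against the control these were, after quantile normalization, Xpo5 1385167_at 0.03, Ago1 1374968_at 0.04 and Tnrc6a 1394984_at 0.08; after median centring the same 3 at 0.01, 0.09 and 0.08, Tarbp2 0.01, Prkra 0.08 and Ago1 1375249_at 0.04; after cyclic loess the same 3 at 0.03, 0.04 and 0.08 and Tarbp2 0.02. With siRNA 2600, Xpo5 1388956_at turned to 0.01, 0.08 and 0.02 under these scalings in order, and Prkra to -0.01 after quantile normalization and cyclic loess. Leaving out 1 array turned signs too. With siRNA 3488 the ranges were -0.06 to 0.07 (Ago1 1374968_at), -0.02 to 0.10 (Drosha 1376273_at), -0.17 to 0.15 (Tnrc6a 1394984_at) and -0.45 to 0.03 (Xpo5 1388956_at). With siRNA 2600 they were -0.40 to 0.04 and -0.19 to 0.30 (Ago1 1374968_at, 1382879_at), -0.22 to 0.00 (Dgcr8), -0.07 to 0.10 (Dicer1 1398643_at), -0.10 to 0.26 and -0.08 to 0.67 (Drosha 1376273_at, 1398416_at), -0.03 to 0.05 (Prkra), -0.12 to 0.20 (Tnrc6a 1372508_at), and -0.05 to 0.07 and -0.24 to 0.23 (Xpo5 1385167_at, 1388956_at).

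Counts of partner genes moved more. For siRNA 3488 the 21 became 3 without an intensity trend and 4 to 27 when 1 array was left out. For siRNA 2600 the 1 became 2 after quantile normalization, 0 with no filter, without a trend or with only the arrays compared, and 0 to 1 leaving out 1 array. Between the siRNAs the 9 became 3 after quantile normalization, 4 after cyclic loess, 3 with no filter, 0 without a trend or with only the arrays compared, and 0 to 9 leaving out 1 array. For both siRNAs the 1 became 0 with no filter or without a trend, 7 when both siRNA effects were averaged within the 3-group model, and 0 to 7 leaving out 1 array (7 without Adamts16-2600 replicate 1). With siRNA 3488, Ptges3 (-0.01) and Hsp90ab1 (-0.05) turned after quantile normalization. Of 24 named partner values, 3 (Ran, Lsm2 and Edc4 with siRNA 3488 against the control) kept their call under all 17 alternatives. The cause of these changes was not tested.

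Whether replicate numbers pair the arrays could not be decided. Deviations from group means correlated at -0.05 to 0.16 for same-numbered arrays and at -0.19 to 0.19 for the others. In a group of 2 arrays the deviations mirror each other, so few of these values are independent. With the replicate block, partner calls were 23 with siRNA 3488, 0 with siRNA 2600, 12 between the siRNAs and 0 for both, and signs turned for Ago1 1374968_at (0.07) with siRNA 3488 and for Dgcr8 (0.00), Xpo5 1385167_at (-0.04) and Xpo5 1388956_at (0.01) with siRNA 2600.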
